A study of Mus musculus with 14 samples.

Results

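The contacts of a single site on mouse chromosome 9, the CTCF bait, were compared between embryonic stem cells (ESC) and neural stem cells (NSC). The libraries were chosen by their titles, and 3 of the 14 libraries of the series belonged to this bait: ESC replicate 1, ESC replicate 2 and NSC replicate 1. ESC were cultured in 2i with LIF, a medium that keeps pluripotent cells in the naive state, and NSC had been derived from ES cells and were kept in EGF and FGF, so cell type and culture medium cannot be told apart. The assay was UMI-4C, in which chromatin is crosslinked, cut, ligated and sheared, and the molecules joined to the bait are counted by their sheared ends, used as unique molecular identifiers (UMIs). The files hold contacts and no expression, so the labelled cell types could not be checked against marker genes, and with a lone NSC library each value is given beside both ESC libraries. The labels do not state what the word CTCF in the name of the bait stands for, nor whether the ESC libraries came from separate cultures, so the spread between them may be technical.

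Mammalian chromosomes are folded into loops and domains by cohesin, a ring-shaped complex that is thought to extrude DNA until it is stopped, most often at sites bound by the zinc-finger protein CTCF. The STAG proteins are cohesin subunits that contact CTCF. Stag1, the gene that fills much of the locus above the bait, encodes one of them. UMI-4C from a fixed site reads how often every other site of the locus is captured together with it, so a change in folding appears as UMIs moving from one part of the profile to another.

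The bait is the end of a restriction fragment at chr9:100455377 (GRCm38), in a GATC site. It is intergenic. The long noncoding RNA gene Gm28166 ends 3465 bp below it, and Il20rb, which encodes a subunit of the receptor for interleukin 20 family cytokines, has its 3′ end 2342 bp above it. Stag1 (chr9:100597798-100959375, plus strand, 361.6 kb) lies on the side of higher coordinates. Its upstream annotated start is 142.4 kb from the bait, its canonical start 188.1 kb and its 3′ end 504.0 kb. The series has another pair of baits in Stag1 introns, Nanog bait 1 at 164.6 kb and Nanog bait 2 at 186.3 kb from the CTCF bait. The following plus strand sequences of GRCm38 give 40 bases around the GATC site of the bait and of 4 of the 5 ends between 50 kb and 1 Mb with the highest mean share over the libraries, with GATC in capitals. These ends rest on few UMIs, and on 5 or 6 in ESC replicate 2, the shallowest library.
Bait, chr9:100455358-100455397: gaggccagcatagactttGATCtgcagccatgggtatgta
Nck1 intron, chr9:100512168-100512207: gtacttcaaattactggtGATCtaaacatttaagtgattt
Nck1 intron, chr9:100520610-100520649: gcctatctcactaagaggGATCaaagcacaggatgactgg
Pccb intron, chr9:101002010-101002049: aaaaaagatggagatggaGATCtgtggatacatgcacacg
Stag1 intron, chr9:100641679-100641718: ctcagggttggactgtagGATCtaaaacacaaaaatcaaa

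The CTCF consensus motif, a sequence of 12 positions with some degenerate letters, was searched on both strands over 1 Mb on either side of the bait, since its orientation is commonly considered at loop anchors. The exact consensus matched at 10 places, 6 on the plus and 4 on the minus strand, and 8 of 101 windows of 20 kb (7.92%) held a match. The nearest match to the bait lay 57.1 kb below it, so no match was found close to the bait itself, and these letters say nothing about binding there. The matches below are printed 5′ to 3′ on their own strand with the motif in capitals, because one lies 133 bases from one of the Nck1 ends printed above and a pair lies 125 and 183 bases after the canonical start of Stag1.
Minus strand, start at 100398322: tcagtcacaCCAGCAGAGGGCatcggatcc
Nck1, plus strand, start at 100520758: cctatacttCCACCAGGTGGCgctattagc
Stag1, plus strand, start at 100643573: gcagcgcggCCAGCAGAGGGCggtcgggac
Stag1, plus strand, start at 100643631: tggaaaatgCCACCAGATGGCgggttagga

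The libraries differed in depth, and this touches every comparison below. ESC replicate 1 held 51412 UMIs, ESC replicate 2 7666 and NSC replicate 1 21874, of which 24766, 4282 and 8706 lay between 10 kb and 1 Mb from the bait and are called the region. Of the 9338 possible GATC ends of the region, 71.0% were seen in ESC replicate 1, 29.4% in ESC replicate 2 and 50.6% in the NSC library, and the ends seen held 3.73, 1.56 and 1.84 UMIs on average. Between 10 and 100 kb from the bait 86.0%, 62.4% and 79.0% of ends were seen, so a share in which each end counts once, given below as an alternative, can grow little further with depth there and gives more weight to distant ends in the deeper libraries. The smallest share that 3 UMIs could show was 0.0121%, 0.0701% and 0.0345% of the region. The NSC library shared 417 of its 4984 ends on other chromosomes (8.37%) with ESC replicate 1, whereas ESC replicate 2 shared 19 of 780 (2.44%) with ESC replicate 1 and 15 of 780 (1.92%) with the NSC library. Libraries of different baits shared at most 0.641%. The part of this link was tested only for the share of UMIs on chromosome 9, given with that share, and whether molecules of ESC replicate 1 were read in the NSC library was not tested. Intervals below are 95% Wilson intervals and, like all values from single libraries, cover counting error only.

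**Figure D1:**
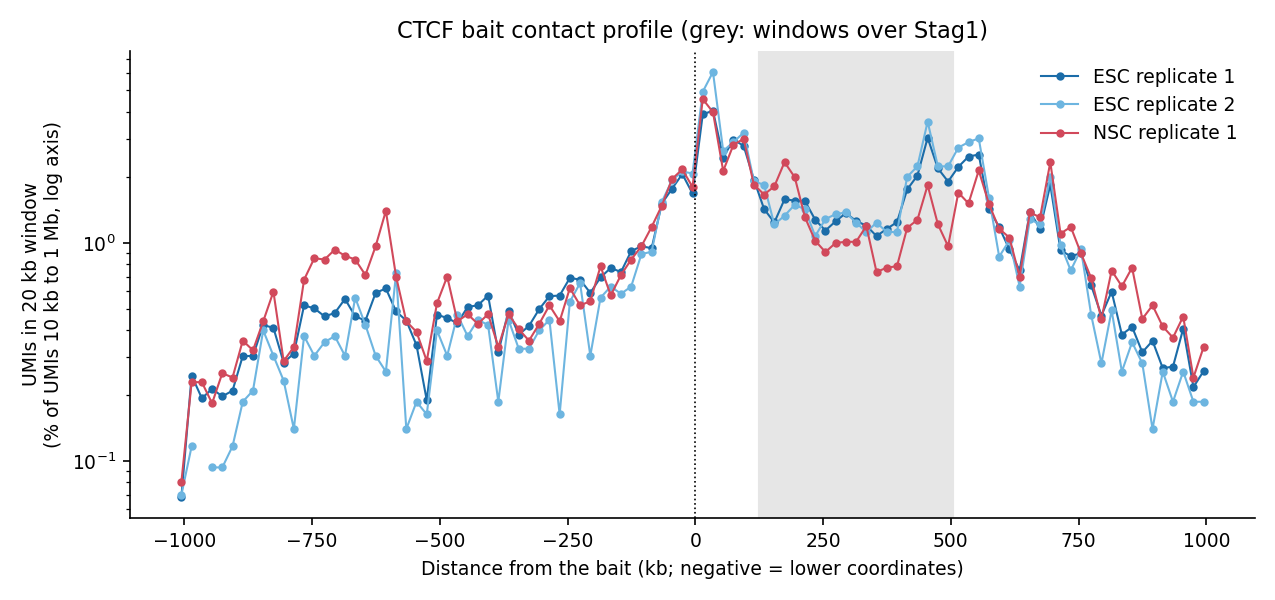
Share of the region's UMIs (percent, log axis) in each 20 kb window against the distance of the window from the bait, 1 line per library; windows over Stag1 are shaded and a window without UMIs is left out. Both ESC libraries run above the NSC library towards the 3′ end of Stag1, and the NSC line stands above both ESC lines about 605 kb below the bait.

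Contacts of the bait reached across the whole of Stag1 and rose again at its far end. In each library the profile fell from the bait to low values inside the gene and climbed to another maximum close to the 3′ end. In the window at chr9:100900001-100920000, 455 kb from the bait, the share of the region's UMIs was 3.03% in ESC replicate 1 (751 UMIs), 3.60% in ESC replicate 2 (154 UMIs) and 1.84% in the NSC library (160 UMIs). It was the highest window of Stag1 in both ESC libraries. In the NSC library the highest window of the gene was instead chr9:100620001-100640000, 175 kb from the bait, at 2.34%. The far maximum remained visible in NSC: relative to the window 100 kb nearer to the bait, it was 2.82-fold and 2.91-fold higher in the ESC libraries and 2.50-fold higher in the NSC library.

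The body of Stag1 took a smaller part of the UMIs in NSC. It held 27.9% of the region's UMIs in ESC replicate 1, 29.0% in ESC replicate 2 and 22.5% in the NSC library, and the ESC mean of 28.5% ± 0.744 (SD, n = 2) exceeded the NSC value by 5.91 percentage points. The NSC interval was apart from those of both ESC libraries. With each fragment end counted once, whatever its number of UMIs, the difference of the means was 2.63 percentage points, but the shares were 20.5% in ESC replicate 1, 29.8% in ESC replicate 2 and 22.5% in NSC, so that the NSC library lay between the ESC libraries. With 2 libraries against 1, the exact permutation test over libraries has 3 arrangements and cannot give a p below 0.333, so no p over libraries is given for any share. The p-values of Fisher's exact test below compare single libraries by their counts.

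Within the gene the difference ran in opposite directions at the ends. When Stag1 was divided into 3 parts of equal length, the part at its 5′ end held 8.37% and 8.03% of the region's UMIs in the ESC libraries and 9.53% in the NSC library. The middle part held 7.45%, 7.57% and 5.79%, and the part at its 3′ end held 12.1%, 13.4% and 7.22%. As a share of the UMIs over the gene alone, the 5′ part accounted for 30.0% and 27.7% in ESC and 42.3% in NSC, and the 3′ part for 43.4% and 46.2% in ESC and 32.0% in NSC. The interval between the upstream and the canonical start of Stag1, where both Nanog baits lie, held 3.32% and 3.27% in ESC and 5.17% in NSC. For each of these parts except the middle one as a share of the gene, the NSC interval was apart from both ESC intervals. These intervals cover counting error only, and over the windows used below the ESC libraries differed from each other by a chi-square of 2.04 per degree of freedom, against 5.45 and 5.04 between the NSC library and each of them. With each end counted once, an alternative chosen for these parts after the data were seen, the differences kept their sign, but no NSC interval was apart from both ESC intervals. The 5′ part then held 6.77% and 8.99% in ESC and 8.04% in NSC, and the 3′ part 7.05% and 11.8% in ESC and 7.71% in NSC, so that the NSC library lay between the ESC libraries.

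To place these shifts, UMIs were counted in 101 windows of 20 kb and tested in 2 ways. The quasi-likelihood test of edgeR, with the region's UMIs as library size, called 13 windows (12.9%), of which 9 were higher in ESC (8.91%) and 4 higher in NSC (3.96%), at an adjusted p of 0.05. It has 1 residual degree of freedom and assumes that the lone NSC library varies as the ESC pair does, and 20 windows had an unadjusted p under 0.05. Its prior degrees of freedom were infinite, so the spread was pooled over windows. The SE and p that edgeR gives for a window therefore do not measure the spread between the libraries in that window. Fisher's exact test of the NSC library against each ESC library called 28 windows against ESC replicate 1 (27.7%) and 25 against ESC replicate 2 (24.8%), and 6 windows between the ESC libraries (5.94%). In 19 windows (18.8%) the NSC library differed from both ESC libraries in the same direction, with 8 higher in ESC (7.92%) and 11 higher in NSC (10.9%). Both tests shared 7 windows higher in ESC and 3 higher in NSC. Of the windows higher in ESC, 8 of 9 by edgeR and 6 of 8 by Fisher's exact test lay over Stag1, as did 2 of the windows higher in NSC by each test, while 19 of all 101 windows lie over the gene.

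These calls depended on how the UMIs were weighed. With all UMIs outside 10 kb of the bait as library size edgeR called 2 windows, both higher in NSC. With each fragment end counted once, neither test called a window, and Fisher's exact test then called 39 windows between the ESC libraries themselves. DESeq2 also called none, with 6 windows at an unadjusted p under 0.05. With TMM factors as scaling edgeR called 12 windows, 8 of them among the 13.

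**Figure D2:**
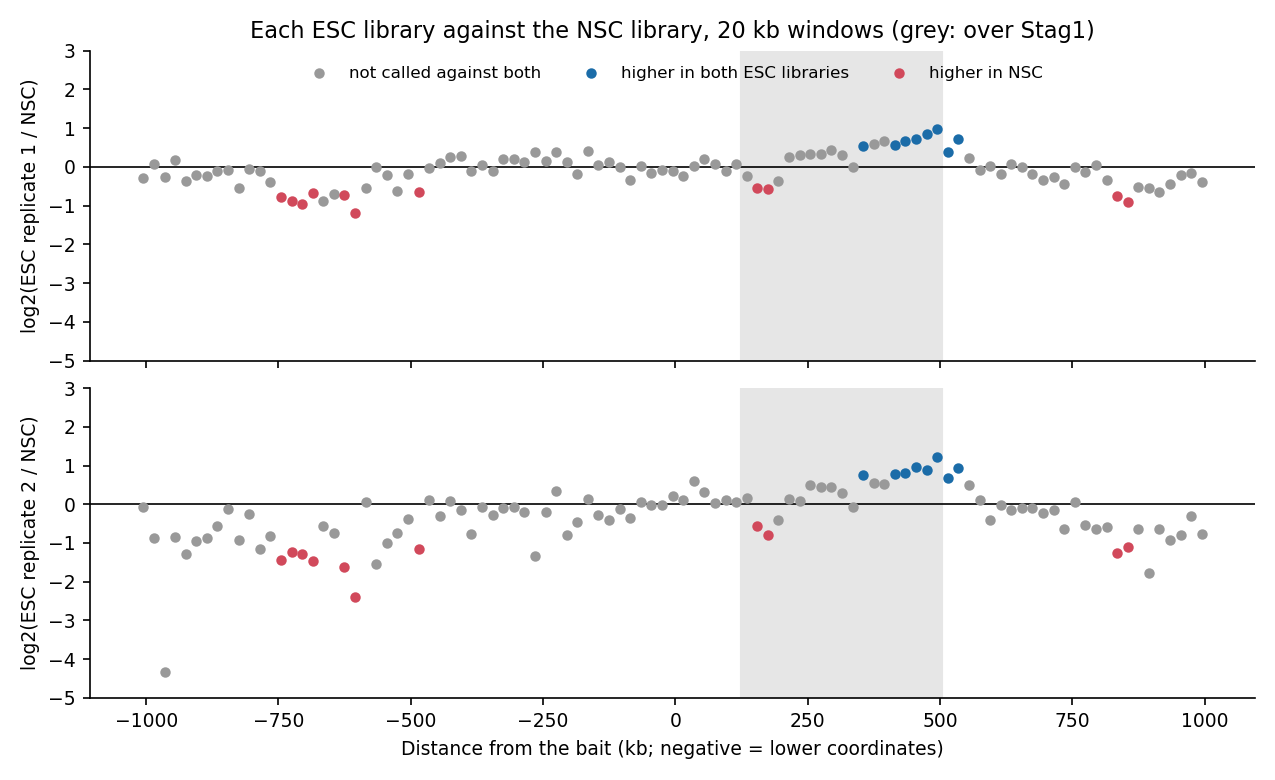
Log2 ratio of the share in ESC replicate 1 (top) or ESC replicate 2 (bottom) to the share in the NSC library for each 20 kb window, with 0.5 UMIs added to each count, against its distance from the bait in kb; colours mark the 8 windows higher in both ESC libraries and the 11 higher in NSC by Fisher's exact test, and shading marks Stag1. Of the windows higher in ESC, 7 form a run at the 3′ end of Stag1 and beyond it and 1 lies at 355 kb, and those higher in NSC lie near the starts of Stag1 and far out on either side.

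The strongest windows higher in ESC lay side by side at the 3′ end of Stag1. The window that holds the 3′ end, chr9:100940001-100960000, had 473 UMIs in ESC replicate 1 (1.91% of the region), 96 in ESC replicate 2 (2.24%) and 84 in the NSC library (0.965%). Its ESC mean was 2.15-fold the NSC share, with an edgeR log2 fold change of 1.05 ± 0.17 (SE, adjusted p = 9.12e-07, n = 2 and 1). Both ESC libraries were above the NSC library by about the same factor, with log2 ratios of 0.98 and 1.22 (0.5 UMIs added to each count). The call was lost with the UMIs of each distance band as library size (log2 fold change 0.66, edgeR adjusted p = 0.0539). In 10 kb windows it was lost too (0.71, edgeR adjusted p = 0.115), as it was with each end counted once (0.39). The call held with TMM factors (edgeR adjusted p = 0.00288). It was also lost, at larger log2 fold changes of 1.51 and 1.25, with all UMIs as library size (edgeR adjusted p = 0.235) and with DESeq2 (adjusted p = 0.0564).

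The 4 windows before it showed smaller differences of the same sign. At chr9:100920001-100940000 the shares were 2.20%, 2.24% and 1.22% in ESC replicate 1, ESC replicate 2 and NSC (edgeR log2 fold change 0.86, adjusted p = 0.000174). The maximum at chr9:100900001-100920000, described above, had an edgeR log2 fold change of 0.82 ± 0.28 (SE, adjusted p = 0.0393). At chr9:100880001-100900000 the shares were 2.04%, 2.24% and 1.27% (log2 fold change 0.72, edgeR adjusted p = 0.00149), and at chr9:100860001-100880000 they were 1.76%, 2.01% and 1.17% (log2 fold change 0.64, edgeR adjusted p = 0.00189). Over these 5 windows the edgeR log2 fold change grew towards the 3′ end, and in none of them did the NSC library reach the lower ESC library.

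Nearer to the bait in Stag1, chr9:100800001-100820000 was also called by both tests, with 1.07%, 1.24% and 0.735% (log2 fold change 0.59, edgeR adjusted p = 0.0203).

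The run continued past Stag1 into Pccb, the gene for the beta subunit of the mitochondrial enzyme propionyl-CoA carboxylase. The window chr9:100980001-101000000, in which Pccb ends, held 2.49% of the region's UMIs in ESC replicate 1, 2.90% in ESC replicate 2 and 1.52% in NSC (log2 fold change 0.79 ± 0.22 SE, edgeR adjusted p = 0.00451). The window between the genes, chr9:100960001-100980000, held 2.23%, 2.73% and 1.70% and passed Fisher's exact test against both ESC libraries, but not edgeR (log2 fold change 0.49, adjusted p = 0.106).

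At 5 kb the same stretch showed separate crests. The window chr9:100910001-100915000 held 228 UMIs in ESC replicate 1 (0.921%), 54 in ESC replicate 2 (1.26%) and 50 in NSC (0.574%), and its NSC interval was apart from both ESC intervals. The highest 5 kb window of the stretch in all 3 libraries was chr9:101000001-101005000 in Pccb, with 232 UMIs (0.937%), 65 UMIs (1.52%) and 66 UMIs (0.758%). There the NSC library was below both ESC libraries, but its interval overlapped that of ESC replicate 1. This crest holds the Pccb end printed above, which had 15 UMIs in ESC replicate 1, 6 in ESC replicate 2 and 5 in NSC.

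**Figure D3:**
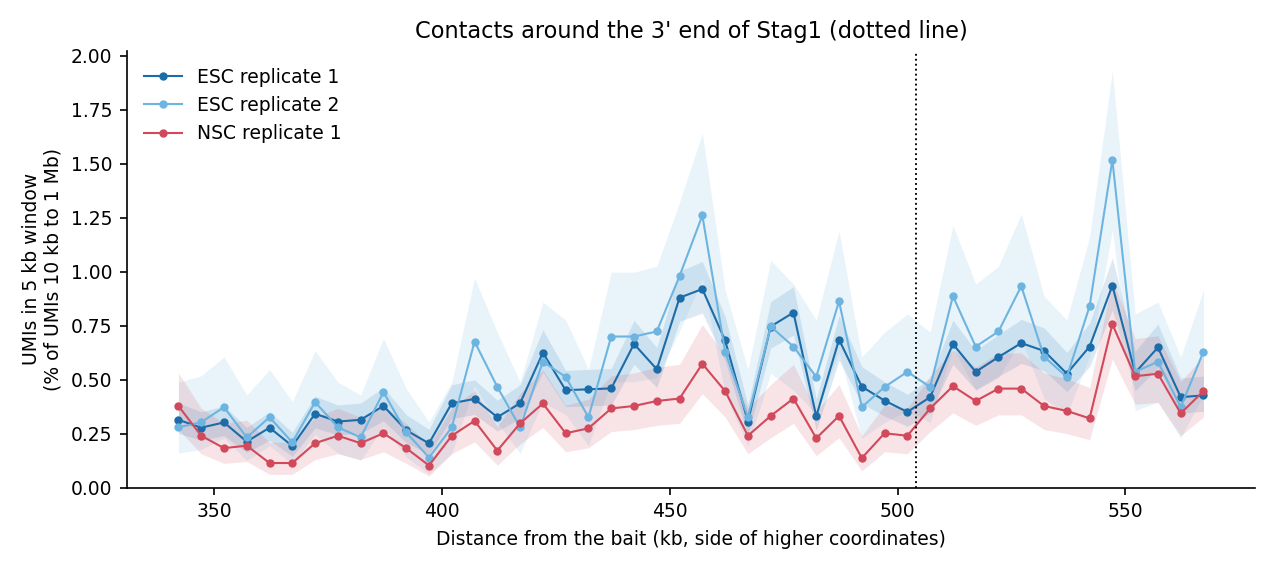
Share of the region's UMIs (percent) in each 5 kb window against the distance from the bait in kb, with bands for the 95% Wilson intervals; the dotted line marks the 3′ end of Stag1 at 504.0 kb. All 3 libraries have crests near 457 kb and 547 kb, and the NSC line lies under both ESC lines between them. Shares are not divided by the number of possible GATC ends in a window.

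Nearer to the bait within Stag1 the NSC library was higher. The window of Nanog bait 1, chr9:100600001-100620000, held 307 UMIs in ESC replicate 1 (1.24%), 52 in ESC replicate 2 (1.21%) and 158 in NSC (1.81%), with a log2 fold change of -0.56 ± 0.14 (SE, edgeR adjusted p = 0.00189). This call was lost with TMM factors (log2 fold change -0.42, edgeR adjusted p = 0.239), with distance bands (-0.34, adjusted p = 0.402) and in 10 kb windows at a similar fold (-0.52, adjusted p = 0.252). With all UMIs as library size the log2 fold change was -0.18 (edgeR adjusted p = 0.863). The next window, chr9:100620001-100640000, held 1.58%, 1.33% and 2.34% (log2 fold change -0.62, edgeR adjusted p = 0.00149). In both windows the ESC libraries lay close together and the NSC library above them.

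The starts of Stag1 themselves were not called by edgeR in 20 kb windows or against both ESC libraries. The window of the canonical start, which also holds Nanog bait 2 (chr9:100640001-100660000), had 1.56%, 1.49% and 2.00% in ESC replicate 1, ESC replicate 2 and NSC (log2 fold change -0.37, edgeR adjusted p = 0.0931). It passed Fisher's exact test against ESC replicate 1 alone (adjusted p = 0.0293), and the 50 kb window that holds it, and Nanog bait 1 too, passed edgeR (log2 fold change -0.62, adjusted p = 0.0114). At the upstream start, the window (chr9:100580001-100600000) had 1.43%, 1.84% and 1.67%, so that the NSC library lay between the ESC libraries (log2 fold change -0.12, edgeR adjusted p = 0.861). The fragment end used as Nanog bait 2 was itself among the 5 ends with the highest mean share, with 7, 6 and 5 UMIs in ESC replicate 1, ESC replicate 2 and NSC, too few to compare. Its rank rests mostly on the share in ESC replicate 2 (0.140%), against 0.0283% in ESC replicate 1 and 0.0574% in NSC.

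Around the bait no window was called against both ESC libraries. The window below the bait, chr9:100420001-100440000, held 2.07%, 2.13% and 2.17% of the region's UMIs, and the window above it, chr9:100460001-100480000, of which only the part beyond 10 kb was counted, held 3.88%, 4.93% and 4.56%. The share within 100 kb of the bait was 23.9% in ESC replicate 1, 28.1% in ESC replicate 2 and 24.9% in NSC. The next window, chr9:100480001-100500000, held 4.03%, 6.07% and 3.97% and had the lowest adjusted p of all windows between the ESC libraries themselves (Fisher's exact test, 7.09e-07). In each of the windows next to the bait the difference missed the threshold of edgeR (adjusted p = 0.990 for each).

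The distal ends printed above from Nck1, which encodes an adaptor protein with SH2 and SH3 domains, belonged to this close range. The end at 100512188, 56.8 kb from the bait, had 22 UMIs in ESC replicate 1, 5 in ESC replicate 2 and 8 in NSC, and the end at 100520630, 65.3 kb away, had 13, 5 and 8. As shares of the region these were 0.0888%, 0.117% and 0.0919% for the first end and 0.0525%, 0.117% and 0.0919% for the other. At both ends the NSC share fell between those of the ESC libraries.

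By distance, the difference between the cell types lay beyond 100 kb. The bands from 10 to 50 kb (14.0%, 17.7% and 15.0% in ESC replicate 1, ESC replicate 2 and NSC) and from 50 to 100 kb (9.94%, 10.4% and 9.86%) had no NSC interval apart from both ESC intervals. From 100 to 200 kb the NSC library was higher, with 13.7% against 11.9% and 11.3%. From 200 to 500 kb it was lower, with 23.3% against 31.0% and 30.2%, and from 500 kb to 1 Mb higher again, with 38.2% against 33.1% and 30.4%. The NSC intervals of these 3 bands were apart from those of both ESC libraries. With each end counted once the ESC minus NSC differences shrank from -2.08 to -0.683, from 7.33 to 3.62 and from -6.41 to -3.84 percentage points. In the farthest band the shares were then 45.8% in ESC replicate 1, 35.9% in ESC replicate 2 and 44.7% in NSC, with the NSC library between the ESC libraries, while from 100 to 200 kb and from 200 to 500 kb it stayed above and below both.

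By side of the bait, the bands up to 500 kb differed on the side of Stag1. There the band from 100 to 200 kb held 7.83%, 8.06% and 9.82%, and the band from 200 to 500 kb held 23.4%, 24.5% and 16.3%, while on the other side the NSC library lay between the ESC libraries in both bands. From 500 kb to 1 Mb the shares on the lower side were 9.61%, 6.77% and 13.9%. On the side of Stag1 they were 23.5%, 23.6% and 24.3%, where the intervals overlapped, a sum of stretches that differed in opposite directions: Pccb was higher in ESC, and the stretch beyond Ppp2r3a held 3.60% and 2.66% in ESC and 5.02% in NSC, with the NSC interval apart from both. The lower side as a whole held 29.4% of the region's UMIs in ESC replicate 1, 24.5% in ESC replicate 2 and 33.6% in NSC, a difference of -6.61 percentage points. With each end counted once the lower side held 46.2%, 29.7% and 40.9% (difference of the means -2.98), so that the NSC library lay between the ESC libraries. Counted once, it also lay between the ESC libraries in the bands at 100 to 200 kb and 200 to 500 kb on the side of Stag1, at 500 kb to 1 Mb on the lower side and beyond Ppp2r3a.

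**Figure D4:**
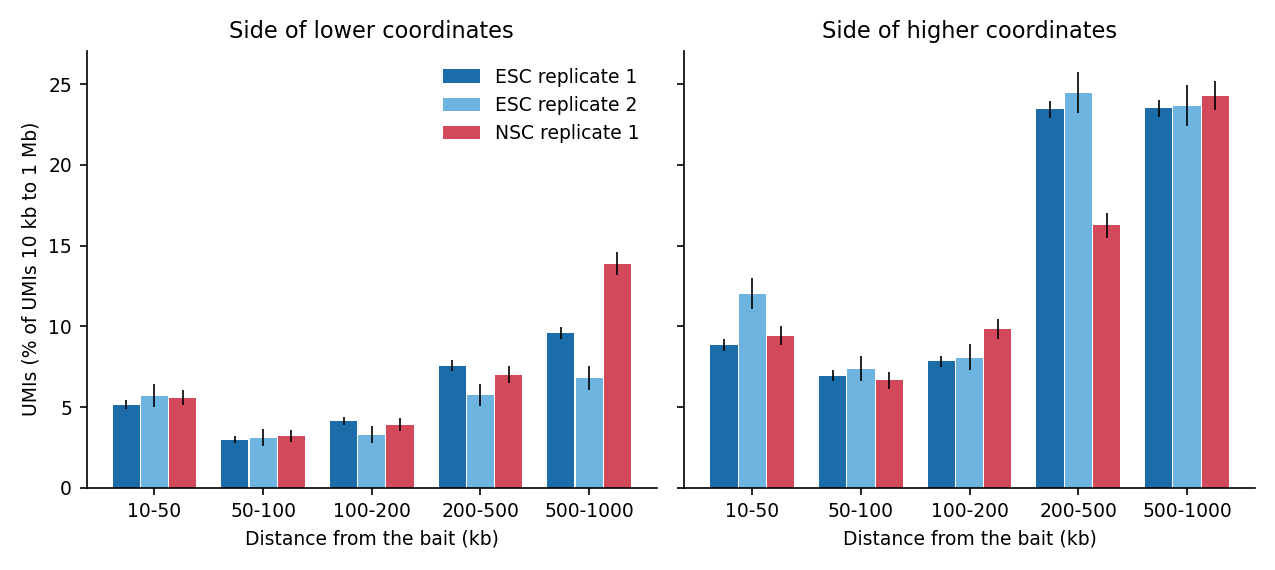
Share of the region's UMIs (percent) by distance from the bait in kb on the side of lower (left) and higher (right) coordinates, 1 bar per library with its 95% Wilson interval. The NSC bar is lower than both ESC bars at 200-500 kb on the right (16.3% against 23.4% and 24.5%) and higher at 500-1000 kb on the left (13.9% against 9.61% and 6.77%).

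On the lower side most windows higher in NSC lay beyond Sox14, a gene for a SOX family transcription factor with roles in neuronal differentiation. The segment from the lower edge of the region to the end of Sox14 held 8.12% of UMIs in ESC replicate 1, 5.79% in ESC replicate 2 and 12.2% in NSC, and the segment from Sox14 to the bait held 21.3%, 18.7% and 21.3%. With each end counted once the outer segment held 17.4%, 8.44% and 16.3%, with the NSC library between the ESC libraries. Of the windows between Sox14 and the bait, chr9:99960001-99980000 passed Fisher's exact test against both ESC libraries, with 0.452%, 0.304% and 0.701% (adjusted p = 0.028 and 0.0206), but not edgeR (adjusted p = 0.575). The largest difference of all windows called in this direction was at chr9:99840001-99860000, 605 kb from the bait and just below the Sox14 window. It held 153 UMIs in ESC replicate 1 (0.618%), 11 in ESC replicate 2 (0.257%) and 122 in NSC (1.40%), a 3.20-fold excess of NSC over the ESC mean (edgeR log2 fold change -1.38 ± 0.24 SE, adjusted p = 6.94e-06). The ESC libraries differed from each other in this window (Fisher's exact adjusted p = 0.0441), and their log2 ratios to NSC were -1.18 and -2.39.

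The window of the Sox14 start itself, chr9:99860001-99880000, was not called. It held 0.485%, 0.724% and 0.701%, so the NSC library lay between the ESC libraries (edgeR log2 fold change -0.32, adjusted p = 0.941). Further out, the windows chr9:99740001-99760000, chr9:99720001-99740000 and chr9:99700001-99720000 held 0.930%, 0.839% and 0.850% in NSC, against 0.476%, 0.460% and 0.501% in ESC replicate 1 and 0.374%, 0.350% and 0.304% in ESC replicate 2. They passed Fisher's exact test against both ESC libraries, but not edgeR (adjusted p = 0.158, 0.271 and 0.271).

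The last of these windows lies over Cldn18, the gene for a claudin of tight junctions, and was the only one of the 11 windows higher in NSC (9.09%) with a match to the CTCF consensus, against 0 of the 8 higher in ESC and 7.92% of all windows. Beyond the end of Ppp2r3a on the other side, the windows chr9:101280001-101300000 and chr9:101300001-101320000 likewise held more UMIs in NSC, with 0.632% and 0.770% against 0.380% and 0.412% in ESC replicate 1 and 0.257% and 0.350% in ESC replicate 2. They too missed the threshold of edgeR (adjusted p = 0.575 and 0.365).

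Counted over gene bodies, 14 protein-coding genes of the region held at least 20 UMIs, namely Nme9, Armc8, Dbr1, A4gnt, Dzip1l, Cldn18, Sox14, Il20rb, Nck1, Slc35g2, Stag1, Pccb, Msl2 and Ppp2r3a. Of these, 4 (28.6%) differed between the NSC library and both ESC libraries by Fisher's exact test. Stag1 and Pccb were higher in ESC, and Cldn18 and Ppp2r3a higher in NSC. The values of Stag1 are given above. Pccb held 5.95% of the region's UMIs in ESC replicate 1, 6.91% in ESC replicate 2 and 4.69% in NSC (Fisher's exact adjusted p = 6.28e-05 and 1.67e-06).

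Ppp2r3a, which encodes a regulatory subunit of protein phosphatase 2A, held 7.71%, 7.43% and 8.76% (Fisher's exact adjusted p = 0.00723 and 0.026), and Cldn18 held 0.755%, 0.444% and 1.15% (adjusted p = 0.00418 and 0.000116, Fisher's exact test). Cldn18 rested on 187, 19 and 100 UMIs. Nck1 held 7.85%, 8.55% and 7.51%, Slc35g2, a solute carrier gene, 1.85%, 1.73% and 1.72%, and Msl2, the gene for a ubiquitin ligase of the MSL histone acetyltransferase complex, 1.30%, 1.35% and 1.48%, none of which passed against either ESC library. Il20rb held 5.42%, 7.15% and 6.06% and Armc8 0.957%, 0.374% and 1.06%, and these 2 genes differed between the ESC libraries themselves.

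Beyond the region the NSC library kept more of its contacts far from the bait. Of UMIs more than 10 kb from the bait, 78.7% lay on chromosome 9 in ESC replicate 1, 88.0% in ESC replicate 2 and 75.1% in NSC. The ESC mean exceeded NSC by 8.30 percentage points, ESC replicate 1 alone by 3.61 and ESC replicate 2 alone by 13.0, and the mean difference was 7.17 without the ends on other chromosomes that any pair of the 3 libraries shared. With each end counted once the shares were 65.4%, 84.5% and 68.6%, so that the NSC library lay between the ESC libraries. Of the chromosome 9 UMIs, the region took 64.0%, 73.7% and 57.2%, and the stretch from 1 to 2 Mb took 8.46%, 6.59% and 12.2%. The ESC libraries differed from each other in these shares too, and the deeper one, ESC replicate 1, was the closer to NSC.

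The excess from 1 to 2 Mb was on the side of higher coordinates. There the NSC library held 8.84% of its chromosome 9 UMIs, against 5.04% and 4.13% in ESC replicate 1 and ESC replicate 2, and from 2 to 3 Mb 3.87% against 2.45% and 1.60%. In 250 kb windows the NSC interval was apart from both ESC intervals in each of the 6 windows from 1 to 2.5 Mb. In the window chr9:102205378-102455377, which lies over Ephb1, the gene for an ephrin receptor, the shares were 1.11% in ESC replicate 1 (431 UMIs), 1.10% in ESC replicate 2 (64 UMIs) and 2.18% in NSC (332 UMIs). In the next window, which holds Ky, Cep63 and Anapc13, they were 0.940%, 0.843% and 1.88%. The ESC libraries were close to each other in both windows, and the NSC share was 1.97-fold and 2.11-fold the ESC mean. They were not as close in all of the 6 windows: in chr9:101705378-101955377 the shares were 1.06%, 0.533% and 1.97%, and in chr9:102705378-102955377 0.602%, 0.378% and 0.874%.

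On the lower side no 250 kb window between 1 and 3 Mb and no 1 Mb window between 1 and 10 Mb had an NSC interval apart from both ESC intervals. Of the UMIs between 1 and 10 Mb, 41.8% and 40.4% lay on the lower side in ESC and 32.5% in NSC. Single ends carried little of this: the ends with most UMIs beyond 1 Mb, at 101940059 in an intron of 9630041A04Rik and at 102544290 in an exon of Ky, had 3, 0 and 4 UMIs and 5, 0 and 2 UMIs.

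**Figure D5:**
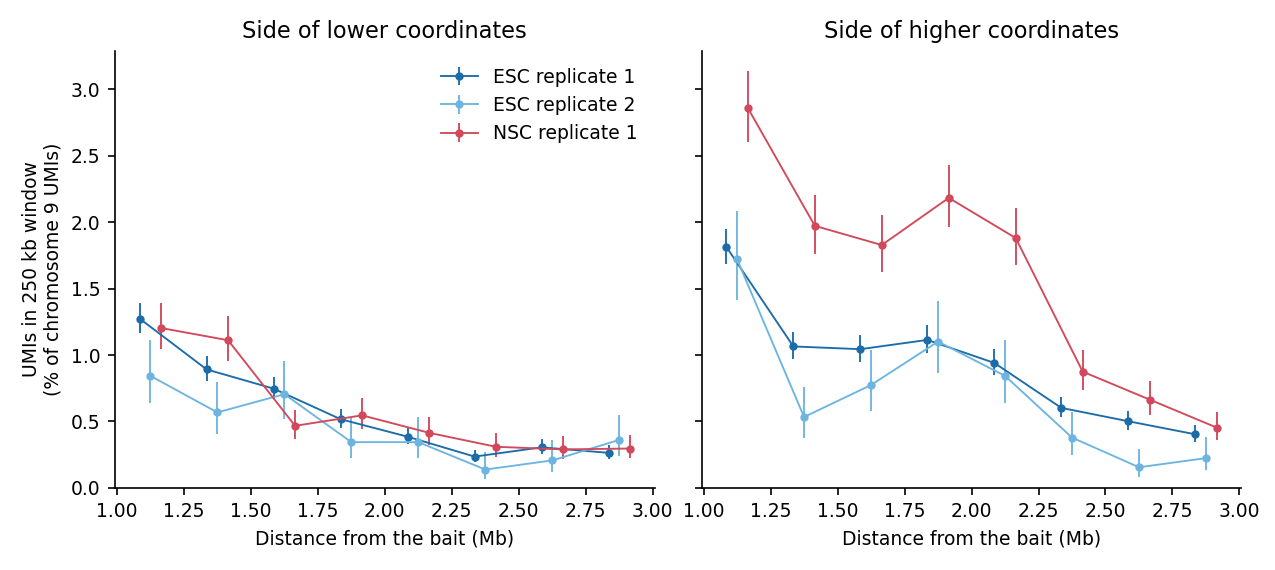
Share of chromosome 9 UMIs (percent) in 250 kb windows against distance from the bait in Mb, on the side of lower (left) and higher (right) coordinates, with 95% Wilson intervals and 1 line per library. On the right the NSC library lies above both ESC libraries from 1 to 2.5 Mb, and on the left the libraries overlap in most windows.

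Whether the differences were particular to this bait was tested with an interaction of bait and cell type over 96 windows, using the libraries of every bait. Libraries that shared at least 50% of their ends on other chromosomes, relative to the smaller library, were averaged, which left 11 samples. This rule cannot tell whether the samples came from the same cells, and the labels do not state it. No window passed an adjusted p of 0.05 in edgeR against Nanog bait 1 (5 windows at an unadjusted p under 0.05) or against Nanog bait 2 (12 windows). The lowest adjusted p against Nanog bait 1 was 0.0760, at the window of the Stag1 3′ end, where the edgeR log2 fold change of ESC over NSC was 1.05 from the CTCF bait and -0.01 from Nanog bait 1. Against Nanog bait 2 it was 0.128, at the window of the Stag1 upstream start, with log2 fold changes of -0.11 and 0.92. Libraries of different baits are scaled to their own region, so these folds are relative to each bait's profile.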

How the data were processed

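UMI-4C libraries of the CTCF bait (ESC, n = 2; NSC, n = 1) were analysed. The authors deposited 1 file per library that pairs fragment ends and gives their count, in whole UMIs without normalisation. Bowtie2 and mm10 are named in the submitters' processing notes; the rule for collapsing UMIs and the filters are not given in the sources used here. Each pair was listed in both directions (100% of rows), so 1 direction was used. Listed ends on chromosome 9 lay at GATC sites of GRCm38 in 100% of cases, and ends on other chromosomes were not checked. Groups came from sample titles. The libraries, windows and genes were chosen with earlier results of these data known.

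Contacts nearer than 10 kb were not used. Shares of the region (10 kb to 1 Mb either side) have 95% Wilson intervals. Windows of 20 kb with at least 10 UMIs were tested with edgeR 4.0.16 (quasi-likelihood, limma 3.58.1, R 4.3.3), and the NSC library was compared with each ESC library by Fisher's exact test (scipy 1.17.1), two-sided, with Benjamini-Hochberg adjustment over windows, or over genes with at least 20 UMIs. Both were run on simulated counts with planted changes. Those for Fisher's exact test held counting error only, without the further spread seen between the ESC libraries. Those for edgeR had planted changes larger than the ones named here. Neither run therefore gives error rates for these data. All p-values measure counting error or, for edgeR, a spread between libraries that was pooled over windows. Windows were named if they held a bait, a Stag1 or Sox14 landmark, or were among the 6 in each direction with the largest smaller-of-2 log2 ratio among those called against both ESC libraries; others mentioned were chosen after their values were seen, as were the 5 kb and 250 kb windows. Averages of repeat libraries entered the fit over all baits (11 samples, whose independence the labels do not state), rounded to whole numbers. Genes are from GENCODE and sequences from the GRCm38 RefSeq assembly. Alternatives were TMM and DESeq2 1.42.0 scaling, other library sizes, no minimum of UMIs, ends counted once, thinning to the shallowest library, 10 kb and 50 kb windows, 20 kb left out around the bait, shared ends left out and each ESC replicate left out.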

Additional observations from a re-analysis of the deposited data

Results flagged for a closer look

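The shift between the cell types ran in opposite directions at different baits for 3 shares, in the sense that all ESC libraries of each bait lay on one side of its NSC libraries. These differences between baits were not tested. The share of the region's UMIs on the lower side was lower in the ESC mean than in NSC at the CTCF bait (-6.61 percentage points), where the ESC libraries had 24.5% and 29.4% and the NSC library 33.6%, whereas at Nanog bait 2 the ESC libraries had 54.2% to 55.9% and the NSC library 53.1%; at Nanog bait 1 the ESC libraries were lower, as at the CTCF bait (-1.71). The share at 100 to 200 kb was also lower in ESC at the CTCF bait (-2.08 percentage points), whereas at Nanog bait 1 it was 17.8% to 18.2% in ESC and 15.4% to 15.8% in NSC; at Nanog bait 2 it was lower in ESC, as at the CTCF bait (-1.81). The share at 200 to 500 kb was higher in ESC at the CTCF bait (7.33 percentage points), whereas at Nanog bait 2 it was 22.1% to 25.0% in ESC and 26.2% in NSC; at Nanog bait 1 the libraries of the cell types overlapped. The cis share, the share over Stag1 and the share at 500 kb to 1 Mb were separated between the cell types in the same direction at all 3 baits, with the share over Stag1 higher in ESC by 5.91 percentage points at the CTCF bait, 9.69 at Nanog bait 1 and 10.5 at Nanog bait 2. The baits lie at different places of the locus, so a band of distance covers other genes at each.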

How the results depend on the processing

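All 13 windows called by edgeR, or the 11 of them that remained in the fits over all baits, kept their direction in every fit with 20 kb windows. With TMM factors 12 were called (7 and 5). The number fell from 13 (9 higher in ESC, 4 in NSC) to 2 (0 and 2) with all UMIs as library size, 3 (2 and 1) with the UMIs of each distance band as library size, 3 (1 and 2) of 200 windows of 10 kb (1.5%), 6 (4 and 2) of 41 windows of 50 kb (14.6%), and 0 (0 and 0) with each end counted once or with DESeq2; unadjusted, 0 and 6 windows had p under 0.05 in the last 2. The fit over all baits called 1 window higher in NSC. Without ESC replicate 1 or 2, with the spread taken from all baits, 8 to 9 were called, 7 higher in ESC and 1 to 2 higher in NSC. Of the 19 windows called against both ESC libraries (8 and 11), 0 (0 and 0) were called with each end once, where 10 of the 19 kept their sign, and 6 each with band totals and after thinning, where all 19 kept it and 7 (4 and 3) were called in all. Of 41 windows of 50 kb 12 (5 and 7) were called (29.3%), and of 200 windows of 10 kb 14, with 6 higher in NSC; against a single ESC library 25 to 28 were called, 10 to 11 higher in ESC and 15 to 17 in NSC. With each end once, the ESC minus NSC difference was -2.98 percentage points for the lower side, 2.63 for Stag1, -0.683 at 100 to 200 kb, 3.62 at 200 to 500 kb and -3.84 at 500 kb to 1 Mb; these 5 kept their sign, as did 13 of 13 further shares of the region (parts of Stag1, segments and bands by side) that had been apart from both ESC libraries, although with ends counted once the NSC library lay outside both ESC libraries in only 3 of the 13. The cause was not tested. The edgeR median log2 fold change over all windows was -0.11 and 0.25 with all UMIs as library size. ESC replicate 2, the shallowest library, limits what can be seen far from the bait. No paired analysis was possible because the CTCF bait groups share only replicate number 1.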
